A study of Mus musculus with 127 samples.

Results

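The 9 genes described here encode enzymes that make or degrade D-amino acids and subunits of the NMDA receptor. They are Ddo, Dao and Srr, and Grin1, Grin2a, Grin2b, Grin2c, Grin2d and Grin3a, and they were taken by name from the 54838 genes of the deposited count tables. The list was chosen by earlier results of these data, namely the lower Ddo counts of whole cortex and of nuclear and synaptic libraries in germline mutants. In those 3 comparisons the values of Ddo are therefore given as a description, with no test.

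The study measured poly(A) RNA of adult mouse cortex at around postnatal day 60 (P60) in animals with reduced Chd8, a chromatin remodeller of the chromodomain helicase family. In the germline line every cell carried 1 mutant allele, and Chd8+/5bpdel animals (HET) were set against wild-type littermates (WT) in whole cortex (16 HET and 15 WT), nuclear libraries (9 HET and 12 WT), synaptic libraries (7 HET and 11 WT) and cytosolic libraries (7 HET and 5 WT). In the conditional line Chd8 was floxed and Cre was driven by Camk2a, a promoter active mainly in excitatory forebrain neurons, so these animals model loss in that cell class. Conditional whole cortex compared Cre-positive with Cre-negative animals, all heterozygous for the floxed allele by their titles (6 and 8), so Cre and deletion cannot be told apart there. Conditional nuclear libraries were labelled HET, HOM and WT (6, 3 and 4), and so were the conditional synaptic ones (5, 5 and 4). By their titles all of these animals carried Camk2a-CRE, on Chd8+/flox (HET), Chd8flox/flox (HOM) or Chd8+/+ (WT), so that the WT controls carry Cre as well. Both sexes are present in every set. Fractions were obtained from frozen cortex with commercial synaptosome and nuclear extraction reagents, and each library holds RNA of mixed cortical cells.

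The NMDA receptor is a glutamate-gated channel built from GluN1 subunits (Grin1) together with GluN2 subunits (Grin2a to Grin2d), which bind glutamate, or GluN3 subunits such as GluN3A (Grin3a), which bind glycine. It opens only when a co-agonist, glycine or D-serine, is bound beside glutamate. Serine racemase (Srr) makes D-serine from L-serine, D-amino acid oxidase (Dao) degrades D-serine, and D-aspartate oxidase (Ddo) degrades D-aspartate, an agonist of the receptor. Both oxidases are flavoenzymes of the peroxisome.

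Promoters of a degrading enzyme (Ddo, whose counts chose the list), a synthetic enzyme (Srr) and the obligatory receptor subunit (Grin1) are shown as examples. A link between promoter letters and genotype was not tested. Each runs from 250 bases before to 50 bases after the gene start (RefSeq, GRCm38.p6), and capitals mark CACGTG and GGGCGG.
Ddo, chr10:40629761-40630060, plus strand: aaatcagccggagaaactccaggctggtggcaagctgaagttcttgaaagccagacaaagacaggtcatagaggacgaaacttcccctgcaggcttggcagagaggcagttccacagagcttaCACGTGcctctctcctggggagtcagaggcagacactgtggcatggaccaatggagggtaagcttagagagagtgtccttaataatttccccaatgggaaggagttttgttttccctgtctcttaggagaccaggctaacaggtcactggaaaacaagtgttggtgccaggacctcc
Srr, chr11:74925899-74926198, minus strand: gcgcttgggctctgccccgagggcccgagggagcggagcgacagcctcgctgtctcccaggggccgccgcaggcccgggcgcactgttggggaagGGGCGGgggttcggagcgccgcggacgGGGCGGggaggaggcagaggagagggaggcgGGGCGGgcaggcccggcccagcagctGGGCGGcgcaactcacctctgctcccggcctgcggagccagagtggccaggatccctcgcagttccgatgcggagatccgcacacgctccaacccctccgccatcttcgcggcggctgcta
Grin1, chr2:25319138-25319437, minus strand: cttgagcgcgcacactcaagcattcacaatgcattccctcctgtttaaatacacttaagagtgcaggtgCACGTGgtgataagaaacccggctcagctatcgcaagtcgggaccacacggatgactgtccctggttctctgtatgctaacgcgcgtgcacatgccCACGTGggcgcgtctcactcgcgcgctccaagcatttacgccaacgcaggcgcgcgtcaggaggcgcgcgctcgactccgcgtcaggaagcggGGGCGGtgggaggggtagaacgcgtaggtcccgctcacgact

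The Ddo window held 3 CpG dinucleotides at 51.67% GC and 1 CACGTG. The Srr window held 33 CpG at 75.33% GC and 4 GGGCGG, and the Grin1 window 33 CpG at 60.67% GC, 2 CACGTG and 1 GGGCGG. Across 32851 RefSeq promoters of the same length the median was 7 CpG at 52.67% GC, and 23.31% had fewer CpG than Ddo, against 91.44% with fewer than Srr or Grin1. CACGTG, which reads the same on both strands, stood in 7.15% of those promoters, GGGCGG on either strand in 35.66%, TGACGTCA in 1.79% and TATAAA in 13.62%. Neither TGACGTCA nor TATAAA was found in the 3 windows. A match is a description of letters, not a bound site. Sequences of 6 of the 9 members were matched by symbol. Among those not shown, windows of Dao held 6, 3 and 9 CpG, the last with 1 CACGTG, Grin2c held 22 and Grin2d 12. The Dao window with 3 CpG thus had as few as that of Ddo.

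In the deposited tables (GRCm38, Ensembl identifiers) Ddo (ENSMUSG00000063428) lies on chr10:40630011-40681847, plus strand, and Dao (ENSMUSG00000042096) on chr5:114003703-114025682, plus strand. The remaining members are on the minus strand. Srr (ENSMUSG00000001323) lies on chr11:74906359-74925948, Grin1 (ENSMUSG00000026959) on chr2:25291181-25319187, Grin2a (ENSMUSG00000059003) on chr16:9567898-9995560 and Grin2b (ENSMUSG00000030209) on chr6:135713233-136173511. Grin2c (ENSMUSG00000020734) lies on chr11:115249169-115267243, Grin2d (ENSMUSG00000002771) on chr7:45831883-45878378 and Grin3a (ENSMUSG00000039579) on chr4:49661611-49845744. Exons of Srr overlap those of Smg6 and Tsr1 on the opposite strand, and exons of Grin1, Grin2b, Grin2c and Grin2d overlap antisense or small non-coding genes, so their counts may include reads of those genes. No exon of another gene overlaps Ddo, Dao, Grin2a or Grin3a.

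Library totals were 19 to 56.6 M counts in 6 sets and 98.1 to 134.6 M in conditional cortex, and precision differs accordingly. Chd8 averaged 62.03 CPM (counts per 1 M deposited counts of the library) in germline HET cortex and 93.18 in WT cortex, and all 7 HET cytosolic libraries were below all 5 WT. In germline nuclear libraries Chd8 was at 116.6 ± 16.98 CPM in HET and 116.8 ± 10.67 CPM in WT (SD, n = 9 and 12), so the targeted gene gave no separation there. Conditional levels of Chd8 were 51.7 CPM with Cre and 73.4 without it in cortex, and in the nuclear fraction 99.0, 74.8 and 107 CPM in HET, HOM and WT. Cre counts were 460 to 630 in Cre-positive and 0 in Cre-negative cortex. Germline synaptic WT male replicates 1 and 2 stood apart, with 857 and 1221 CPM of the nuclear RNA Malat1 against 18.2 to 184 CPM in the other 16 synaptic libraries, and the values without them are given beside the synaptic results they touch. Nuclear HET female replicate 4 and nuclear WT male replicate 7 had sex markers that go against their labels, and for 1 conditional animal the genotype given to the nuclear library (HET) differs from that of the synaptic one (HOM). The excitatory neuron marker Slc17a7 was at 537 CPM or more in every library, and no marker of the cell type lists was at 0 throughout a group. With 31 cortex libraries 57 of 17074 genes (0.334%) passed edgeR's quasi-likelihood F test at a Benjamini-Hochberg adjusted p under 0.05 between HET and WT, Chd8 among them (-0.58 on the log2 scale, SE 0.08, adjusted p = 7.89e-05). That number of genes depended on single libraries, and fell to 31 without HET male replicate 3.

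Ddo was lower in HET than in WT in all 4 germline sets, to between 57.8 and 77.8% of the WT mean. In germline cortex Ddo ran from 3.43 to 7.06 CPM with a median of 4.61 in the 16 HET libraries, and from 4.91 to 9.49 CPM with a median of 6.71 in the 15 WT libraries. The ranges overlapped, with 9 of 16 HET libraries below the lowest WT library and 15 of 16 below the WT median. The fitted difference, from the comparison that chose the gene, was -0.44 on the log2 scale (SE 0.10). Its 95% interval of -0.64 to -0.23 does not allow for that choice. By batch label, the same libraries averaged 5.13 ± 1.03 CPM in HET and 7.07 ± 1.54 in WT under CHD80456 (SD, n = 8 and 7). Under CHD807 they averaged 4.53 ± 1.04 in HET and 6.14 ± 1.09 in WT (n = 8 each). These means are part of the values that chose Ddo and give it no further support.

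Nuclear libraries separated the genotypes more fully. Ddo spanned 4.74 to 7.14 CPM with a median of 5.71 in 9 HET libraries, and 6.73 to 12.3 CPM with a median of 9.22 in 12 WT libraries. All but 1 HET library lay below the lowest WT library, and the fitted difference was -0.60 (SE 0.10), or -0.63 (SE 0.11) without the 2 libraries whose sex markers go against their labels. By group of batch labels, the same libraries had HET and WT means of 6.11 and 10.2 CPM, 5.12 and 8.21 CPM, and 6.68 and 9.20 CPM. Of 19912 genes 0.0151% passed the test in the nuclear comparison, and Ddo was used to choose the list from it.

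In synaptic libraries Ddo spanned 1.71 to 4.96 CPM with a median of 3.52 in 7 HET libraries, and 4.39 to 7.11 CPM with a median of 6.39 in 11 WT libraries. Here 6 of 7 HET libraries lay below every WT library. The fitted difference was -0.70 (SE 0.16), and it was -0.70 (SE 0.16) as well without the 2 WT males that stand apart. Only 1 HET library carries each of the first and the third group of batch labels, and in the second group 5 HET libraries averaged 3.41 ± 1.15 CPM and 3 WT libraries 6.04 ± 0.621 CPM.

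The cytosolic libraries were not used to choose Ddo. None of the 12 analysed carries exactly the animal code of a nuclear or synaptic library, though 1 code, M6F, is close to 6F of those sets, and 1 number recurs in whole cortex under the other genotype label. The 7 HET libraries ran from 2.80 to 5.72 CPM with a median of 4.23, while the 5 WT libraries held 4.61, 4.75, 4.94, 5.57 and 6.11 CPM. All HET libraries but 1 lay below the lowest WT library. The groups differed by -0.51 on the log2 scale (SE 0.17, 95% interval -0.87 to -0.14), with an unadjusted p of 0.00989 and an adjusted p of 1 in edgeR over 18454 genes, of which 0.0% passed (606 at an unadjusted p under 0.05, and 4 with DESeq2). The two-sided exact permutation test gave a difference of -0.40 in mean log2 CPM with p = 0.0505, and 0.3 after Benjamini-Hochberg adjustment over the 6 comparisons tested this way. The smallest p that test allows is 0.00126, so the lower cytosolic level did not pass. Male HET libraries (2.84 CPM, n = 2) were below female ones (4.52 CPM, n = 5), with WT females at 5.16 and WT males at 5.22 CPM.

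**Figure D1:**
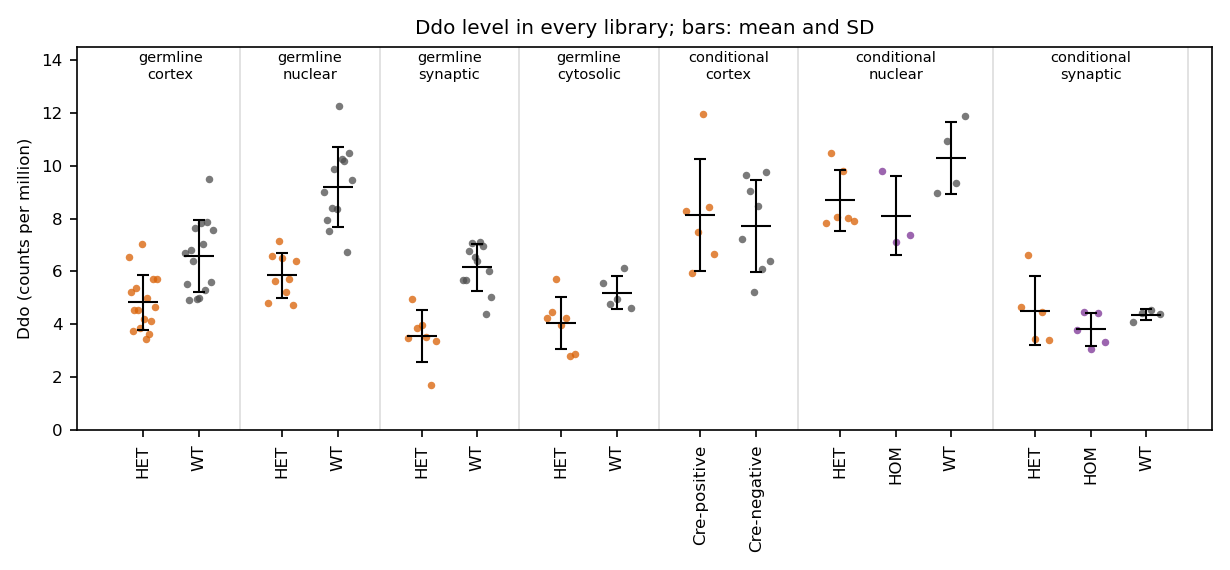
Ddo in CPM (linear axis) in each library, by set and genotype, with the mean and SD of each group. HET points lie below most WT points in the 4 germline sets, while Cre-positive and Cre-negative cortex overlap throughout.

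In the conditional line no difference of Ddo between genotypes passed edgeR's test or the exact permutation test. In conditional cortex Ddo averaged 8.14 ± 2.11 CPM in 6 Cre-positive animals and 7.73 ± 1.73 CPM in 8 Cre-negative animals (SD), a difference of 0.06 (SE 0.17) with a 95% interval of -0.31 to 0.42. The exact permutation test gave p = 0.762. Conditional nuclear libraries ran lower in mutants, with 7.85 to 10.5 CPM (median 8.04) in 6 HET animals, 7.13, 7.38 and 9.82 CPM in 3 HOM animals, and 8.98, 9.35, 10.9 and 11.9 CPM in 4 WT animals. Below the lowest WT library were 4 of 6 HET and 2 of 3 HOM libraries. The differences were -0.22 (SE 0.14, 95% interval -0.52 to 0.07) in HET and -0.25 (SE 0.17, -0.60 to 0.10) in HOM, and neither passed edgeR's test (adjusted p = 0.933 and 0.522) or the exact permutation test (p = 0.1 and 0.171, adjusted 0.3 and 0.343). With 3 HOM animals the smallest p that test allows is 0.0286. HOM and HET share the same 4 WT animals.

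In conditional synaptic libraries the 3 genotypes overlapped. HET libraries held 3.41, 3.44, 4.45, 4.63 and 6.64 CPM of Ddo, HOM libraries 3.06, 3.34, 3.77, 4.41 and 4.45 CPM, and WT libraries 4.07, 4.39, 4.43 and 4.55 CPM. The WT libraries lay within the HET range. Differences of 0.04 (SE 0.19, 95% interval -0.37 to 0.45) in HET and -0.17 (SE 0.19, -0.58 to 0.24) in HOM gave exact permutation p = 0.96 and 0.246. Germline and conditional effects were not tested against each other, since they come from different tables. In these bulk libraries fewer cells that express Ddo and less Ddo RNA per cell cannot be told apart.

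Marker lists of other cell types and of nuclear RNA are given for the same sets, and their part in the Ddo values was not tested. In germline nuclear libraries all 15 endothelial and mural markers had fold changes below 0 (median -0.36, none passing), with summed levels of 1446 to 2761 CPM in HET and 1575 to 3933 CPM in WT, and so did all 12 oligodendrocyte markers (median -0.07, sums of 4458 to 6989 against 4116 to 9332 CPM). In germline cortex 2 of 9 tested choroid plexus and ependyma markers passed as lower in HET, with sums of 6.806 to 48.99 CPM in HET and 10.8 to 567 CPM in WT. In cytosolic libraries those sums were 6.95 to 15.4 CPM in HET and 12.4 to 343 CPM in WT. In germline synaptic libraries, with the WT males that stand apart included, all 9 nuclear-retained RNAs had fold changes below 0 (median -0.80). Their sums were 508 to 1927 CPM (median 1304) in HET and 1160 to 33472 CPM (median 1959) in WT. Conditional nuclear HOM libraries had all 15 endothelial and mural markers below WT as well (median -0.75, none passing).

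Of the 10 tested genes nearest to Ddo on chromosome 10, none passed the test between germline genotypes. In germline cortex their log2 fold changes ran from -0.11 (Gpr6) to 0.09 (Mettl24, which begins 1.435 kb after Ddo). Cdk19, ending 146.2 kb before Ddo, differed by -0.15 in nuclear libraries (adjusted p = 0.563). Across the 31 germline cortex libraries, after genotype, sex and batch were removed, the log2 CPM of Ddo followed Steap3 (Pearson r = 0.70), Cyp4f14 (0.69), Gpr34 (0.68), Gpr37l1 (0.67) and Cd180 (0.67) most closely among 13485 genes. Libraries share depth and composition across all genes, so these r are a description.

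Dao, the enzyme that degrades D-serine, was barely present. Germline libraries held 0 to 14 reads of it and conditional libraries 0 to 43. In germline cortex Dao averaged 0.0922 ± 0.0959 CPM in HET and 0.180 ± 0.148 CPM in WT, and it was too low to be tested in the germline and conditional synaptic sets. Where it was tested, its fold changes were -0.89 (SE 0.58) in Cre-positive cortex, and -1.08 (SE 0.65) in HET and -0.58 (SE 0.76) in HOM conditional nuclei, with adjusted p from 0.751 to 0.933. In conditional nuclei Dao stood at 0.146 ± 0.113 CPM in HET, 0.244 ± 0.117 in HOM and 0.355 ± 0.0813 in WT. At these counts a difference was not detectable.

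Srr, which makes D-serine, was expressed far above either oxidase, and its differences between genotypes did not pass the test in any set. In germline cortex it ran from 42.1 to 63.1 CPM with a median of 54.0 in HET and from 43.2 to 59.9 CPM with a median of 52.3 in WT, so the ranges nearly coincided. Its fold change was 0.03 (SE 0.06, 95% interval -0.10 to 0.16). The intervals were -0.11 to 0.32 in nuclear, -0.20 to 0.21 in synaptic and -0.35 to 0.11 in cytosolic libraries. In conditional nuclei Srr was at 32.8 ± 6.59 CPM in HET, at 32.2, 40.1 and 47.6 CPM in HOM, and at 33.0, 33.2, 33.2 and 39.04 CPM in WT. That HOM difference of 0.28 (SE 0.20) did not pass (adjusted p = 0.559). Over the germline cortex libraries the residual log2 CPM of Srr followed Reps2, Usp47 and Cdh8 (r = 0.96 each), Napb and Dip2c (0.95 each), again as a description.

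Between genotypes no receptor subunit passed the test in any set. In germline cortex none of the 7 tested members other than Ddo passed with edgeR or DESeq2 or was under 0.05 unadjusted, beside the 0.334% of all genes that passed with edgeR. Their fold changes lay between -0.11 (Grin2a, SE 0.08, adjusted p = 0.696) and 0.03 (Srr and Grin2c). Grin1, the obligatory subunit, had the narrowest interval, -0.12 to 0.07, at 332 to 487 CPM (median 444) in HET and 336 to 492 CPM (median 459) in WT. Grin2b, a GluN2 subunit prominent early in development, had an interval of -0.34 to 0.13 and ran from 170 to 553 CPM (median 400) in HET and from 304.1 to 641.1 CPM (median 369) in WT. In nuclear libraries 0 of the 7 passed with either tool or at an unadjusted p under 0.05, with fold changes from -0.02 (Grin3a, SE 0.10) to 0.12 (Grin2d, SE 0.11).

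In germline synaptic libraries 4 subunits had fold changes of 0.27 to 0.40 in HET against WT, and none passed the test. Grin1 ran from 493.7 to 690.3 CPM (median 634) in 7 HET libraries and from 327 to 731 CPM (median 542) in 11 WT libraries. Grin2a, a GluN2 subunit, ran from 216 to 342 CPM (median 298) in HET and from 118 to 338 CPM (median 232) in WT. The ranges overlapped in both genes, with the HET median above the WT median. These medians are not adjusted for batch, and 1 HET but 4 WT libraries carry the first group of batch labels. The lowest WT values of both genes (animal 4F) and the lowest HET values (animal 9F) come from that group. Fold changes were 0.28 (SE 0.08, unadjusted p = 0.00336, adjusted p = 0.31) for Grin1 and 0.40 (SE 0.12, unadjusted p = 0.00439, adjusted p = 0.327) for Grin2a in edgeR's test. Grin2b differed by 0.34 (SE 0.16, adjusted p = 0.462) and Grin3a by 0.27 (SE 0.12, unadjusted p = 0.0389, adjusted p = 0.429). Of 17178 genes 0.0% passed in that comparison (1881 at an unadjusted p under 0.05, and 31 with DESeq2), and 3 of the 7 members other than Ddo were under 0.05 unadjusted.

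Without the 2 WT males that stand apart the same comparison called 0.842% of 16862 genes, and 0 of the 7 members other than Ddo. Grin1 then differed by 0.26 (SE 0.07, adjusted p = 0.0625), Grin2a by 0.38 (SE 0.11, adjusted p = 0.0762), Grin2b by 0.33 (SE 0.14, adjusted p = 0.215) and Grin3a by 0.19 (SE 0.10, adjusted p = 0.276). Grin2c (-0.05, SE 0.09), Grin2d (0.13, SE 0.07) and Srr (-0.02, SE 0.09) stayed nearer to 0. With the 2 males included, excitatory neuron marker sums were 3019 to 3827 CPM in 7 HET and 2018 to 4177 CPM in 11 WT synaptic libraries. GABAergic sums in the same libraries were 1407 to 1671 against 723 to 1673 CPM. The part of either list in the subunit values was not tested.

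**Figure D2:**
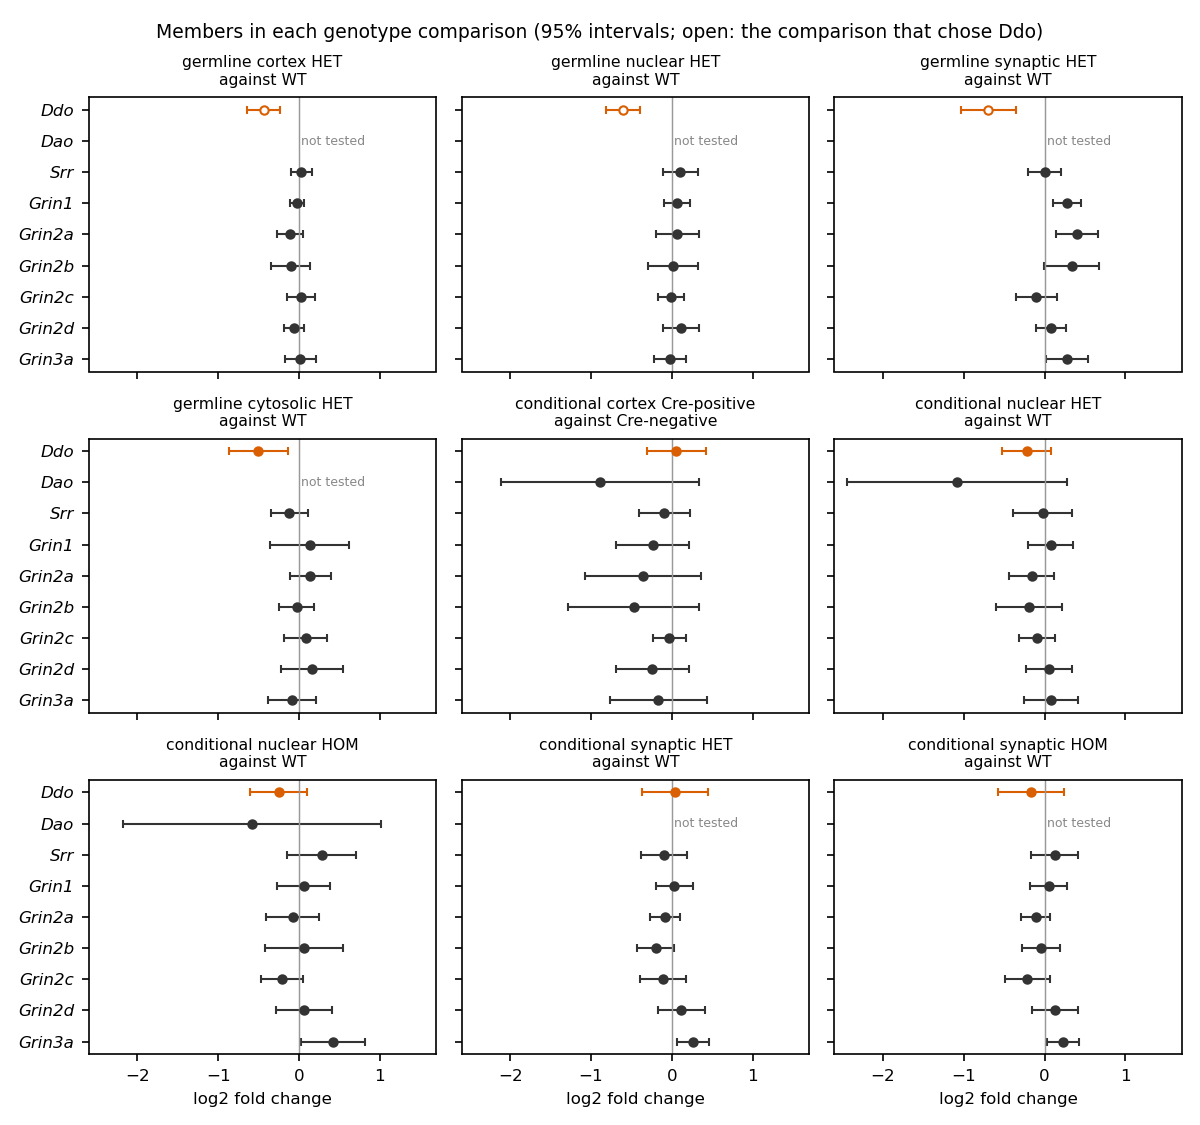
Log2 fold change of each member by genotype comparison (mutant against WT, or Cre-positive against Cre-negative), with 95% intervals from edgeR. Open symbols mark the 3 comparisons that chose Ddo, and apart from Ddo most intervals cross 0, the exceptions being Grin1, Grin2a and Grin3a in germline synaptic libraries and Grin3a in 3 conditional ones.

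In cytosolic libraries none of the 7 members other than Ddo passed, with intervals that were widest for Grin1 (0.13, -0.36 to 0.62). Grin1 ran there from 54.6 to 140 CPM in HET, against 49.4, 84.6, 85.8, 89.3 and 118 CPM in WT. Conditional cortex called 0.0% of 21798 genes (671 at an unadjusted p under 0.05, 4 with DESeq2) and 0 of the 9 members, none of them under 0.05 unadjusted. All 6 subunits had fold changes below 0 there, from -0.03 (Grin2c, SE 0.10) to -0.47 (Grin2b, SE 0.38), with intervals that cross 0. Grin2b ran from 91.8 to 420 CPM with Cre and from 156 to 511 CPM without it, so the groups overlapped widely.

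Conditional nuclear libraries called 0.0% of 21133 genes in HET (940 at an unadjusted p under 0.05, 3 with DESeq2) and 0.0% in HOM (2448 and 27), with no member among them by either tool. Grin3a, a GluN3 subunit that takes the place of a GluN2 subunit in some receptors, was the member under 0.05 unadjusted in HOM (0.42, SE 0.19, unadjusted p = 0.0373, adjusted p = 0.428), at 32.0, 37.3 and 48.1 CPM in HOM and 27.99, 28.88, 29.52 and 37.55 CPM in WT. Without HOM male replicate 1 the difference was 0.23 (SE 0.19). Grin2a was lower in all 6 HET libraries (211 to 307 CPM) than in the 4 WT libraries (313.2 to 319.4 CPM), as did 0.861% of the 21133 genes tested, but its fitted difference of -0.16 (SE 0.13) did not pass (adjusted p = 0.933). Grin2c, too, did not overlap in HOM (48.3, 54.8 and 55.6 CPM) against WT (56.36, 63.97, 64.88 and 69.34 CPM), at -0.21 (SE 0.12, adjusted p = 0.493). In that comparison 6.64% of all genes tested were lower in every HOM than in every WT library.

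Conditional synaptic libraries called 0.0% of 17505 genes in HET (765 at an unadjusted p under 0.05, 0 with DESeq2) and 0.0% in HOM (868 and 2), and no member passed with either tool. Grin3a held 60.2, 65.6, 69.2, 74.4 and 74.6 CPM in HET, 59.48, 62.85, 63.25, 65.01 and 81.79 CPM in HOM, and 52.23, 54.32, 58.65 and 66.57 CPM in WT. HET and HOM values were above the WT median in every library, and the differences were 0.26 (SE 0.09, unadjusted p = 0.0124, adjusted p = 0.995) and 0.23 (SE 0.09, unadjusted p = 0.0249, adjusted p = 0.923), neither of which passed. Both share the 4 WT libraries. Grin2b differed by -0.20 (SE 0.11) in HET, and by -0.05 without WT female replicate 2, whose 1509 CPM was the highest WT value.

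Per length, the mean levels of the members had the same order in HET and WT germline cortex, but not in conditional cortex. There Cre-positive animals had 35.4 TPM (transcripts per 1 M, from counts per exon length) of Grin2c, 27.8 of Srr and 26.7 of Grin2b. Grin3a stood above Grin2d, at 7.80 and 4.54 TPM with Cre and 9.42 and 5.61 TPM without it. In germline cortex Grin1 stood at 175 ± 25.2 TPM in HET and 181 ± 23.8 TPM in WT. Grin2b was at 62.4 and 68.2 TPM, Grin2c at 57.7 and 56.5, Srr at 46.5 and 46.2, and Grin2a at 36.2 and 39.4 TPM in HET and WT cortex. Grin2d, a subunit known from interneurons, and Grin3a followed at 15.8 and 16.8 and at 14.7 and 14.8 TPM. Ddo was at 2.14 TPM in HET and 2.96 TPM in WT, and Dao at 0.125 and 0.246 TPM. Grin2b and Grin2c, and Grin2d and Grin3a, differed by less than their spread over libraries.

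Fractions changed the order seen in germline cortex. In cytosolic libraries Srr led, at 50.9 ± 5.3 TPM in HET and 54.6 ± 8.1 TPM in WT, ahead of Grin2b (44.9 and 44.0), Grin2a (37.0 and 33.2) and Grin1 (36.6 ± 11.98 and 32.7 ± 9.2). In nuclear libraries Grin1 led at 150 and 142 TPM, followed by Grin2c at 66.6 and 66.5, Grin2b at 55.5 and 54.7 and Grin2a at 53.5 and 51.5 TPM in HET and WT. Synaptic libraries put Grin1 at 229 and 201 TPM, Grin2b at 103 and 78.8, Grin2a at 58.5 and 45.7 and Grin2c at 34.1 and 44.1 TPM. Without the 2 WT males that stand apart, WT synaptic libraries averaged 191 TPM of Grin1, 79.9 of Grin2b, 45.0 of Grin2a and 33.9 of Grin2c. These TPM values were not scaled between fractions, so orders within a set can be read and levels between sets cannot.

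**Figure D3:**
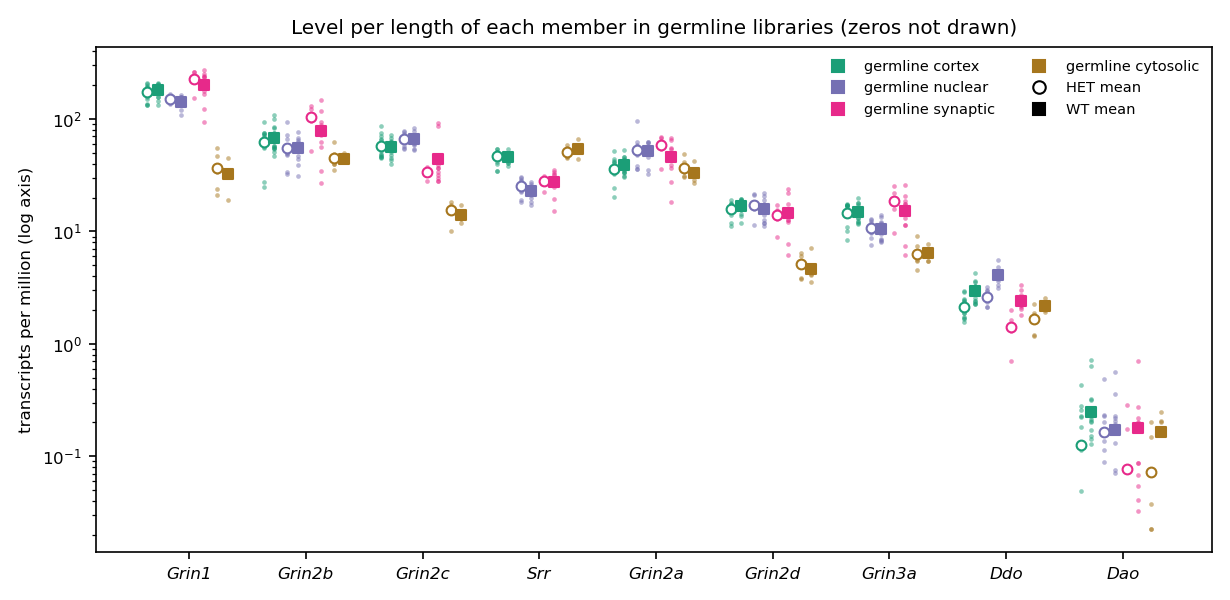
Level per length of each member in TPM (log axis) in the germline sets, with HET means as open circles, WT means as filled squares and libraries as small points. Grin1 is highest in cortex, nuclear and synaptic libraries, Srr in the germline cytosolic ones, and Dao is lowest throughout; values of 0 are not drawn.

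Nuclear and synaptic libraries of the same animals were compared directly, in 5 germline HET and 10 WT animals and in 5 HET, 3 HOM and 4 WT conditional animals, with the animal as a block. The result rests on how library totals are scaled. TMM factors were 0.749 to 1.114 for germline synaptic and 1.105 to 1.34 for germline nuclear libraries, and 0.777 to 0.866 against 1.148 to 1.287 in the conditional line. The median gene changed by -0.19 to -0.11 with TMM and by -0.79 to -0.63 with unscaled totals, an alternative chosen after seeing the data. Fold changes below are with TMM unless stated. Without WT animals 12M, 13M and 29M, 74.3% of 20918 genes were called in germline WT. The synaptic libraries of 12M and 13M stand apart, and the nuclear library of 29M has sex markers that go against its label. The members then stood at 1.07 (Grin1), 0.95 (Grin2b), 1.06 (Grin3a), 0.93 (Srr), 0.34 (Grin2d), 0.30 (Grin2a, not called), -0.13 (Grin2c, not called) and 0.10 (Ddo, not called).

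With TMM 6 of 8 tested members were higher in synaptic than in nuclear libraries of germline HET animals and none lower, beside 62.9% of 21515 genes called (26.8% higher, 36.2% lower). In germline WT animals 5 of 8 were higher and none lower, beside 64.6% called (29.3% higher, 35.2% lower). In each conditional genotype 6 of 9 were higher and 1, Ddo, was lower, beside 60.6% of 21577 genes called in HET (27.9% higher, 32.7% lower), 48.0% in HOM (22.9% and 25.1%) and 61.5% in WT (28.6% and 32.9%). With unscaled totals 9.92 and 53.5% of genes were called higher and lower in germline HET (63.4% in all), 9.67 and 54.2% in germline WT (63.9%), 10.7 and 57.2% in conditional HET (68.0%), 8.51 and 46.7% in HOM (55.2%), and 53.9% lower in WT (64.9% in all).

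Grin1 gained in all 5 groups. Its scaled level was 802 ± 123 CPM in synaptic and 308.2 ± 25.9 CPM in nuclear libraries of 5 germline HET animals, and 631 ± 160 against 282 ± 40.4 CPM in 10 WT animals (SD). On this scale it was higher in the synaptic library of all 15 germline and all 12 conditional animals, and with unscaled totals in all but 1 of them, a germline WT animal. Fold changes were 1.37 (SE 0.16, adjusted p = 8.66e-06) in germline HET, 1.14 (SE 0.11, adjusted p = 4.03e-07) in germline WT, and 1.55, 1.51 and 1.52 in conditional HET, HOM and WT. With unscaled totals they were 0.77, 0.63, 0.99, 0.99 and 0.95, all still called.

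Grin2b and Grin3a rose about as much. Grin2b gained 1.60 (SE 0.31) in germline HET, 1.02 (SE 0.22) in germline WT, and 1.80, 1.60 and 1.73 in conditional HET, HOM and WT, and it reached 1190 to 1778 CPM in conditional WT synaptic libraries against 399 to 465 CPM in the nuclear ones. Its germline WT gain fell to 0.51 with unscaled totals, where the call was lost (adjusted p = 0.0513). Grin3a gained 1.60 (SE 0.27), 1.06 (SE 0.19), 1.65 (SE 0.11), 1.35 (SE 0.15) and 1.48 (SE 0.13) in the same order, and 0.55 to 1.09 with unscaled totals. With TMM its synaptic library was the higher one in every animal, and with unscaled totals in 4 of 5 germline HET, 8 of 10 germline WT and all 12 conditional animals.

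Grin2a was called in 4 of the 5 groups, with 0.85 (SE 0.26, adjusted p = 0.00816) in germline HET and 1.16, 1.07 and 1.09 in conditional HET, HOM and WT. In germline WT it differed by 0.35 (SE 0.18, adjusted p = 0.094), with 153.5 to 436.2 CPM in synaptic and 144.5 to 268.2 CPM in nuclear libraries. That call was gained without animal 4F or 5F (0.44 and 0.45). With unscaled totals the germline HET call was lost (0.24) and the germline WT value turned to -0.15, while the conditional ones stood at 0.60, 0.55 and 0.52.

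Srr and Grin2d showed smaller differences that depended on scaling. Srr gained 0.91 and 0.95 in germline HET and WT and 0.69, 0.79 and 0.77 in conditional HET, HOM and WT, each called with TMM. With unscaled totals 1 of those calls held, in germline WT (0.44, adjusted p = 0.00139), and the conditional HOM call was also lost with TMM without animal 72 (0.55, adjusted p = 0.0628). Grin2d gained 0.36 (adjusted p = 0.0363) and 0.46 (adjusted p = 0.000826) in germline HET and WT and 0.68, 0.69 and 0.59 in the conditional groups. Its germline HET call was lost without animal 16M, 17M, 18M or 6F, and with DESeq2, RLE scaling or no filter. With unscaled totals Grin2d turned to -0.24 and -0.05 in the germline groups and was not called in any group.

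Grin2c, a GluN2 subunit known from astrocytes and cerebellum, was not called in any of the 5 groups with TMM (-0.15 to -0.01), and was called lower in all 5 with unscaled totals (-0.75, -0.52, -0.61, -0.61 and -0.69). Beside the other GluN2 subunits it thus ranked lowest in synaptic against nuclear libraries under both scalings.

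Ddo was called lower in synaptic libraries of the conditional line. In conditional WT animals it stood at 5.23 ± 0.361 CPM in synaptic and 8.31 ± 0.996 CPM in nuclear libraries and was lower in the synaptic library of all 4 animals (-0.66, SE 0.16, adjusted p = 0.00127). HOM animals had 4.58 ± 1.01 against 6.88 ± 1.30 CPM (-0.60, SE 0.19, adjusted p = 0.0119), and HET animals 5.51 ± 1.68 against 6.99 ± 0.696 CPM (-0.38, SE 0.14, adjusted p = 0.0268). The HET call was lost without HET animal 47, 62 or 64 (-0.37, -0.29 and -0.31) and the HOM call without HOM animal 67 or 70 (-0.56 and -0.47). In germline animals the values were 4.02 ± 0.998 against 4.36 ± 0.336 CPM in HET (-0.15, SE 0.22, adjusted p = 0.556) and 7.25 ± 1.19 against 7.6 ± 1.29 CPM in WT (-0.07, SE 0.15, adjusted p = 0.711). On this scale Ddo was higher in the synaptic library of 4 of 5 HET and 4 of 10 WT animals. The HET value turned to 0.069 without animal 17M, and the WT value turned positive without animals 12M, 13M and 29M. With unscaled totals Ddo was called lower in all 5 groups (-0.75 and -0.57 in germline HET and WT, and -0.94, -1.12 and -1.23 in conditional HET, HOM and WT).

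**Figure D4:**
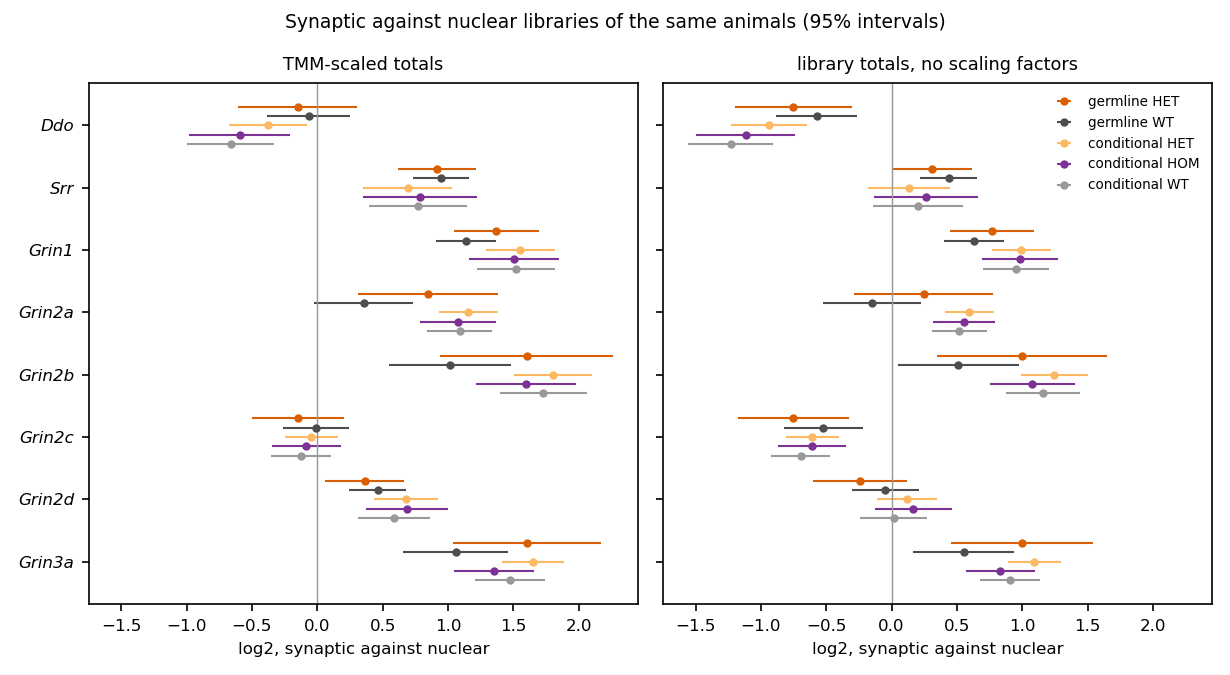
Log2 difference of synaptic against nuclear libraries of the same animals for 8 members in 5 groups, with 95% intervals, using TMM-scaled totals (left) and unscaled library totals (right). Grin1, Grin2b and Grin3a lie above 0 in both panels, whereas Srr and Grin2d move towards 0 without scaling, and Ddo and Grin2c are the lowest members in both.

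No member passed the test of whether the synaptic against nuclear difference depended on genotype. In the germline line the differences of HET from WT were 0.59 (SE 0.38) for Grin2b, 0.55 (SE 0.32) for Grin3a, 0.49 (SE 0.31) for Grin2a and 0.23 (SE 0.19) for Grin1, with adjusted p from 0.59 to 0.651. For Ddo it was -0.09 (95% interval -0.64 to 0.47, adjusted p = 0.925). Of 21515 genes 0.0% passed (1552 at an unadjusted p under 0.05, 0 with DESeq2), and no member was under 0.05 unadjusted. In the conditional line Ddo differed by 0.28 (SE 0.21) in HET and 0.07 (SE 0.24) in HOM, with 0.0% of 21577 genes called in each (624 and 1032 at an unadjusted p under 0.05, 0 with DESeq2).

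GluN2 transcripts were made up differently in the fractions, given here per length as a share of Grin2a to Grin2d together and with no test. Grin2c held 35.6 ± 8.22% in germline HET and 35.7 ± 6.17% in WT nuclear libraries, but 16.7 ± 2.87% in HET and 25.1 ± 10.2% in WT synaptic libraries (22.1% in WT without the 2 males that stand apart). Grin2b took the larger part in synaptic libraries, 48.6 ± 3.54% in HET and 42.0 ± 9.27% in WT (44.4% without the 2 males), against 28.1 ± 5.04% and 28.7 ± 3.71% in nuclear ones. HET and WT overlapped in each share.

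In the conditional line, too, Grin2b held more and Grin2c less of the total in synaptic than in nuclear libraries, but Grin2b and not Grin2c held the largest share of the nuclear ones. Grin2b held 55.5, 58.8 and 57.3% in HET, HOM and WT synaptic libraries and 37.6, 42.9 and 39.7% in the nuclear ones, while Grin2c held 9.75, 8.70 and 9.61% and 24.9, 21.1 and 23.6%. The ratio of Grin2a to Grin2b, which tracks the maturation of cortical NMDA receptors, was 0.9749 ± 0.1141 in germline HET and 0.953 ± 0.104 in WT nuclear libraries and 0.578 ± 0.0604 and 0.615 ± 0.109 in synaptic ones. Neither differed between genotypes beyond its spread. In whole cortex the ratio was 0.606 ± 0.123 in HET and 0.593 ± 0.0819 in WT.

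**Figure D5:**
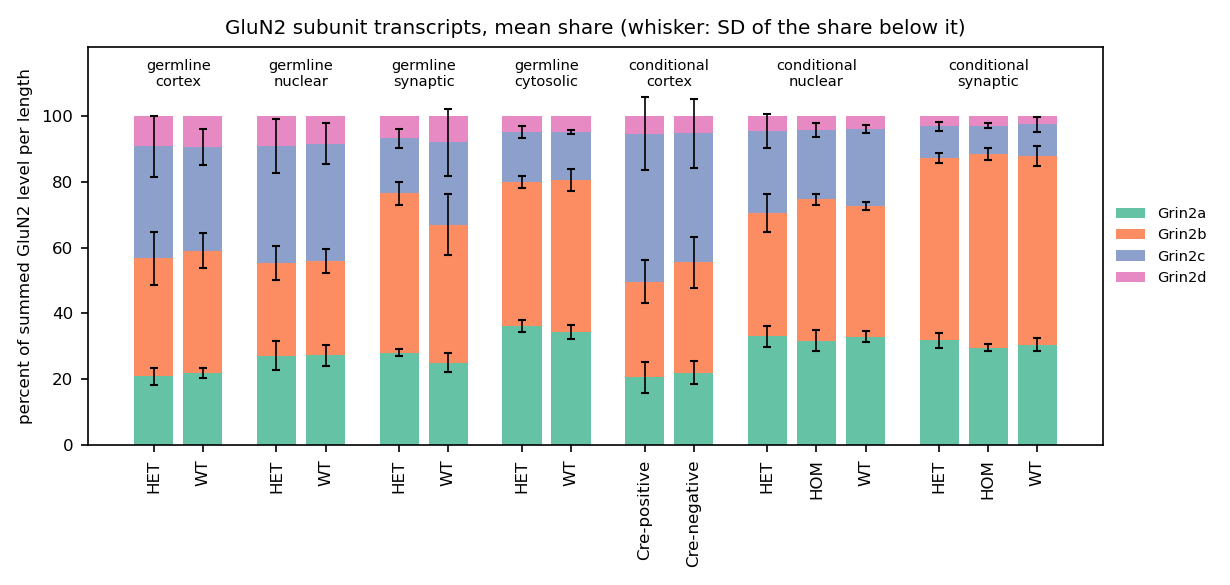
Mean share of Grin2a, Grin2b, Grin2c and Grin2d in the summed GluN2 level per length (percent), by set and genotype, with whiskers for the SD of the share below them. On average Grin2b takes a larger and Grin2c a smaller share in synaptic than in nuclear libraries of both lines, though not in every germline WT animal.

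Sex had no detectable effect on the members in germline cortex. Of 17074 genes 0.0761% passed between females and males, and 0 of 8 members did, none of them under 0.05 unadjusted or with DESeq2. Fold changes of females against males ran from -0.08 (Grin3a) to 0.14 (Grin2a, SE 0.08), and that of Ddo was -0.03 (SE 0.10). Ddo averaged 5.01 CPM in female and 4.603 CPM in male HET cortex, and 6.13 CPM in female and 6.96 CPM in male WT cortex. Grin1 residuals over the same libraries followed Prr12 (r = 0.92), Ap3b2 (0.91), Wnk2 (0.90) and Dync1h1 (0.89), again as a description.

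Genes around the members were read from 6 pathway lists of 108 entries in all, tested as single genes. By genotype 1 gene passed in 9 comparisons with all libraries: Acox3, a peroxisomal acyl-CoA oxidase, was 0.14 higher in germline HET cortex (SE 0.03, adjusted p = 0.0488). Without the 2 synaptic WT males that stand apart Ephb2, a receptor kinase that binds NMDA receptors, also passed (0.37, adjusted p = 0.0397). The tested AMPA, kainate and delta receptor subunits had fold changes below 0 in germline cortex (11 of 11, median -0.04, against -0.001 over all genes), with none passing. In germline synaptic libraries they were above 0 (12 of 12, median 0.22, against -0.002 over all genes), again with none passing. Their synaptic median was 0.23 without the 2 WT males. The part of cell composition, and of the uneven batch labels of synaptic HET and WT libraries, in these values was not tested.

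Between fractions, with TMM, the list counts below stand beside 26.8% of all genes called higher and 36.2% lower in germline HET, 29.3 and 35.2% in germline WT, and 27.9 and 32.7%, 22.9 and 25.1%, and 28.6 and 32.9% in conditional HET, HOM and WT. Among 30 NMDA receptor scaffolds and signalling partners 24 were higher and 1 lower in synaptic libraries of germline HET, and 27 higher and 0 lower in germline WT, with 24, 23 and 28 higher and 0, 0 and 1 lower in conditional HET, HOM and WT. Camk2b, a subunit of the kinase that docks on GluN2B, gained 1.02 and 1.06 in germline HET and WT, and Shank3 and Dlgap3, postsynaptic scaffold proteins, gained 1.08 and 1.36 in germline WT. With unscaled totals, where 9.92% of all genes were higher and 53.5% lower in germline HET and 9.67 and 54.2% in germline WT, 11 were higher and 6 lower in germline HET, 15 and 3 in germline WT, and 9 to 11 higher and 3 to 8 lower in the conditional groups.

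Genes of aspartate supply and uptake were mostly higher in synaptic libraries too, with 10 of 12 higher and 1 lower in both germline groups and 9 of 12 higher in each conditional group, where 0, 0 and 1 were lower in HET, HOM and WT. Got1 and Got2, the aspartate aminotransferases, gained 1.39 and 1.37 in germline HET and 1.20 and 1.18 in germline WT. Aspa, which cleaves N-acetylaspartate in oligodendrocytes, differed by -0.56 and -0.51. With unscaled totals 7 and 7 of 12 stayed higher in germline HET and WT and 6, 5 and 6 in conditional HET, HOM and WT.

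Counts for serine supply were nearer to those shares of all genes. In germline HET 5 of 13 genes were higher and 4 lower, and in germline WT 6 and 3, with the neutral amino acid transporter Slc38a1 higher (1.61 and 1.02) and Slc1a5 lower (-2.41 and -2.31). Unscaled totals left 1 and 3 higher and 7 and 7 lower. Of 5 tested genes of glycine transport and cleavage 3 were higher and 1 lower in both germline groups, and 1 and 1 (HET) or 2 and 1 (WT) with unscaled totals. Gldc, the decarboxylase of the glycine cleavage system, gained 0.98 and 1.08, and Amt, its aminomethyltransferase, differed by -1.54 and -0.90 in germline HET and WT.

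Among genes of the peroxisome, the compartment of Ddo and Dao, 14 of 35 were higher and 6 lower in germline HET and 14 and 8 in germline WT. Abcd2, a transporter of very long chain fatty acids, gained 1.44 and 1.04, and Pex14, a docking factor for import, gained 1.27 and 0.92, whereas Acaa1a, a thiolase, differed by -1.75 and -1.13. With unscaled totals 2 and 5 were higher and 17 and 18 lower. Of the other ionotropic subunits 7 of 12 were higher and 0 lower in germline HET and 6 and 1 in germline WT, led by Grid1 (1.74 and 1.19) and Gria1 (1.30 and 0.74). With unscaled totals 3 were higher and 2 lower in HET, and 3 higher and 5 lower in WT. Without WT animals 12M, 13M and 29M, germline WT had 27 of 30 scaffold genes higher and 2 lower, beside 33.0 and 41.3% of 20918 genes. The counts were 9 and 1 of 12 for aspartate, 6 and 4 of 13 for serine and 3 and 1 of 5 for glycine. They were 19 and 8 of 35 for the peroxisome and 5 and 2 of 12 other ionotropic subunits.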

How the data were processed

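The deposited values are counts of reads per gene, which the authors made with featureCounts (1.6.0 with Ensembl annotation 95, per the file headers of the conditional cortex files, which show no strand option) on GRCm38. STAR 2.5.4b and featureCounts 2.0.0 are named in the submitters' processing notes, and for the other tables the strand setting was not given. Between 56.3 and 74.7% of counts from 10 to 200 were even, so mates may have been counted singly and counting error is larger than the counts show. Of 127 labelled libraries 123 were analysed, and 4 cytosolic ones were not analysed here. Groups were taken from the labels, and in conditional cortex from the titles, with which the protocol text disagrees.

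Counts were fitted with edgeR 4.0.16 in R 4.3.3 (TMM, filterByExpr, quasi-likelihood F test, Benjamini-Hochberg over all genes), per set with sex and batch as covariates, and with the animal as a block between fractions. The scripts were tested on simulated data. DESeq2 1.42.0, RLE scaling, no filter, other covariates, a replicate block, leaving out libraries and unscaled totals were the alternatives. TPM used the deposited exon lengths. The members and lists were chosen with earlier results of these data known. Named were all 9 members, Chd8, per pathway list and direction at most 4 genes that passed, the 5 genes most correlated with Ddo, Srr and Grin1 (1 of them is not reported here), and 5 neighbours on each side of Ddo. Nothing states that replicate libraries of a group were prepared independently, so p-values measure the spread between them.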

Additional observations from a re-analysis of the deposited data

Results flagged for a closer look

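Within groups of 4 to 10 libraries, 13 values of the members stood farther from the other libraries of their group than Dixon's 95% limit allows, out of 99 groups tested. Chance gives about 1 in 20 such groups. In germline nuclear HET libraries, Dao was at 0.357 CPM in female replicate 4 (0 to 0.1722 in the others), one of the libraries whose sex markers go against its label. In the same group Grin2a was at 397.5 CPM in male replicate 1 (159.4 to 278.2 in the others) and Grin2d at 20.28 CPM in male replicate 4 (27.14 to 33.59).

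In germline cytosolic libraries Grin2c was at 13.78 CPM in HET male replicate 1 (20.71 to 24.06 in the other HET libraries), and Grin2d at 12.82 CPM in WT male replicate 4 (6.304 to 7.881 in the other WT libraries). Conditional nuclear HET female replicate 2 had 179.7 CPM of Grin1 (237.9 to 272.6 in the others), and HET female replicate 1 had 44.08 CPM of Grin3a (25.78 to 31.8).

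Conditional nuclear WT female replicate 1 accounted for 3 of the 13 values. It had 319.4 CPM of Grin2a, with the others from 313.2 CPM up to less than 1 CPM above that, 37.55 CPM of Grin3a (27.99 to 29.52 in the others) and 39.04 CPM of Srr (33 to 33.21). Among conditional synaptic libraries Grin3a was at 81.79 CPM in HOM male replicate 1 (59.48 to 65.01 in the others). Grin2a was at 513.6 CPM in WT female replicate 2 (428.5 to 438 in the others), and Grin2c at 54.26 CPM in WT male replicate 1 (34.42 to 36.51).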

How the results depend on the processing

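Under the alternatives tried, 3981 values kept their direction, their side of the threshold and, without a call, their size within 1 SE (or a count within 1.5 times), 71 moved further than that, 24 lost a call, 10 gained one and 2 reversed. With unscaled totals, added after seeing the data, Grin2d between fractions turned to -0.048 in germline WT and -0.24 in germline HET, and Ddo passed as lower in germline HET (-0.75) and WT (-0.57). Ddo in germline WT was at 0.10 without animals 12M, 13M and 29M. In conditional HET its call between fractions was lost with no filter (-0.37) or no replicate block (-0.35). Leaving out 1 animal gave -0.49 to -0.29 in conditional HET (calls lost at -0.37, -0.29 and -0.31 without animals 47, 62 and 64), -0.82 to -0.47 in HOM (lost at -0.56 and -0.47 without animals 67 and 70) and -0.22 to 0.069 in germline HET, the last without 17M. Ddo in conditional nuclear HOM against WT ranged from -0.43 to -0.14. Grin2d in germline HET lost its call without 16M, 17M, 18M or 6F, and under DESeq2 (0.32), RLE (0.32) and no filter (0.38).

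Libraries with equal replicate numbers were alike in some sets and not in others. In the germline line 10 of 14 cortex, 4 of 9 nuclear, 2 of 7 synaptic and 1 of 3 cytosolic pairs correlated above 0.1. In the conditional line 2 of 6 cortex, 6 of 8 nuclear and 7 of 12 synaptic pairs did. With the replicate block cytosolic Ddo differed by -0.80 (adjusted p = 0.0921), and no member other than Ddo passed by genotype in any set. The comparisons that chose Ddo give no support for it, so the fits that put it under the threshold only describe that choice. In germline nuclear libraries Ddo was under the threshold with sex and batch as covariates. Ddo was not under it with the replicate block, genotype alone or the first part of the batch label. The same held without the 2 libraries whose sex markers go against their labels. In germline cortex Ddo was under the threshold with sex and batch as covariates, but not without a filter or with genotype alone. In synaptic libraries Ddo was under it with DESeq2 or without the 2 WT males, but not with edgeR on all libraries. With 1 library left out Ddo was under the threshold in 10 of 31 cortex fits (-0.48 to -0.40), 5 of 21 nuclear fits (-0.65 to -0.58) and 0 of 18 synaptic fits (-0.75 to -0.61), again as a description. Without the animal as a block Grin2a between fractions passed in germline WT (0.41). A replicate block between the sexes could not be fitted.

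Genes called depended on the tool and filter. DESeq2 called 101 in germline cortex (57 with edgeR), 20 in nuclear (3), 31 in synaptic (0) and 4 in cytosolic libraries (0), 4 in conditional cortex (0), 3 and 27 in conditional nuclear HET and HOM (0), and 2 in conditional synaptic HOM (0). Without a filter the counts were 20, 284, 276 and 21 in the germline sets, 64 and 346 in conditional nuclear HET and HOM, 20 and 97 in conditional synaptic HET and HOM, and 10 and 8 in the conditional interactions. The replicate block gave 36 in cortex, 0 in nuclear and 63 in cytosolic libraries. Germline nuclear calls fell to 0 with genotype alone, with the first part of the batch label, or without the 2 libraries whose sex markers go against their labels. Germline synaptic calls reached 142 without the 2 WT males. At 0 to 43 reads Dao is limited by depth.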
